A study of Mus musculus with 20 samples.

Results

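The regions described here were the peaks of N6-methyladenosine (m6A) that lay in 5' untranslated regions (5' UTRs) of mouse thymocyte messenger RNAs. They were the rows of 2 deposited differential peak tables whose annotation reads 5' UTR, with repeated coordinates kept 1 time, and there were 2972 of them among 25992 peaks. The table of invariant natural killer T (iNKT) cells, a lipid-recognising T cell lineage, held 1843 of these peaks among 12542, in 1564 genes. The table of CD4 and CD8 double-positive (DP) thymocytes, from which iNKT cells develop, held 1129 among 13450, in 940 genes.

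Each table set cells of Mettl3fl/flCD4-cre mice against the same cells of WT mice. All mice were C57BL/6 and 6 to 8 weeks old. The iNKT cells were sorted from thymocytes as 7AAD-CD1d-Tet+TCRbeta+ and came as 12 libraries, 3 m6A immunoprecipitates and 3 inputs per genotype. The DP cells were sorted as 7AAD-CD1d-Tet-CD4+CD8+ and came as 8 libraries, with 2 of each kind per genotype. Cre under Cd4 control becomes active in the thymus around the DP stage, so deletion is recent in DP cells, while iNKT cells descend from them. How complete the deletion was in either population was not measured here, and the labels do not say whether a replicate was 1 mouse or a pool.

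Mettl3 is the enzyme that places m6A in messenger RNA, at adenosines in short contexts whose commonest core is GGAC. Most m6A lies in long internal exons and around stop codons, and the mark in the 5' UTR has been linked to the start of translation. The antibody used in such experiments also binds m6Am, a related mark that the enzyme Pcif1 places on an A at the first transcribed position, next to the cap. A 5' UTR peak can therefore hold either mark. Messenger RNAs for ribosomal proteins and many translation factors begin with a terminal oligopyrimidine (TOP) tract, a C followed by further pyrimidines, through which growth signals control their translation.

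Per the file headers, each peak carries a fold enrichment of immunoprecipitate over input, a log2 fold change of methylation that compares genotypes and a false discovery rate (FDR) for it, all of them the authors' own values. A peak passed at an FDR of 0.05. The sign of the fold change is not stated in the files. Negative values were read as probably less methylation after the deletion, since Mettl3 places the mark and the deposited gene lists followed the negative sign. These lists held 1063 of 1063 iNKT genes and 497 of 497 DP genes with a negative 5' UTR peak. They held none of the 1431 iNKT and 2281 DP genes without a negative peak of any class. The lists name no direction, so they show which sign was selected, not which genotype was lower. "Lower" and "higher" below refer to the likely direction, with negative values as less methylation. The tables hold no value per library, so the depth and the spread between replicates are unknown, and intervals below cover counting error over peaks only. The libraries were bulk samples, so fewer cells of a type and less RNA per cell cannot be told apart. Of the 13 markers fixed for iNKT cells, 10 had a peak in the iNKT table and 4 in the DP table, and of the 11 DP markers 5 had a peak in the iNKT table and 6 in the DP table. None of 5 thymic epithelial markers had a peak in either table, while 1 or 2 markers each of B cells, myeloid cells and erythroid cells did. A peak shows that a transcript was present and methylated, not its level.

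The transcript starts at or near several of these peaks are shown because the first base decides whether m6Am or a TOP tract is possible there. RefSeq windows of 30 bases on GRCm38.p6, the assembly of the files' build mm10, hold 10 bases before the annotated start and 20 from it, with the first transcribed base in capitals. Of the 1843 iNKT peaks 1804, and of the 1129 DP peaks 1100, could be set against a RefSeq start on their chromosome and strand.
Ube2k (lower in iNKT cells, chr5:65537235-65537264, plus strand): gagcggctgcGccgcccggtcgggtcagcg
Zfp148 (lower in iNKT cells, chr16:33380765-33380794, plus strand): cggcagcggcGgcgaccgcggcgacgctct
Bcl11b (lower in iNKT cells, chr12:108003395-108003424, minus strand): gcagttttatAatttattttagccttttct
Eef2 (higher in iNKT cells, chr10:81176621-81176650, plus strand): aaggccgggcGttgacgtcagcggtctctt
Eif1 (higher in iNKT cells, chr11:100319939-100319968, plus strand): ggcgtcacagGggcggctatataagtgaat
Rps4x (higher in iNKT cells, chrX:102189372-102189401, minus strand): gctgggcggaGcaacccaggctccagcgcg
Imp3 (higher in iNKT cells, chr9:56937490-56937519, plus strand): ctcccgcattCtccatcatggtgcggaagc
Smim24 (higher in iNKT cells, chr10:81393054-81393083, plus strand): cctgcagctgAacgtcggcccatatccagt
Hmgn1 (lower in DP cells, chr16:96127706-96127735, minus strand): ccatccggttCtcccaccgcccccgcgacg
Ybx1 (lower in DP cells, chr4:119294494-119294523, minus strand): ccgcccgtccCgccattctcgctagttcga
Bcl11b and Smim24 begin with A in RefSeq, but their iNKT peaks begin 21 nt and 46 nt after that base and do not cover it, and the DP peak of Ybx1 begins 28 nt after its start. Hmgn1 begins with a C followed by at least 4 pyrimidines, the definition of a TOP start used here. The windows of Rps4x, a ribosomal protein gene, and of Eef2, Eif1 and Imp3 hold no TOP start at the annotated base. Annotated starts can differ by a few bases from those used in a cell.

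In 2 of these transcripts the GGAC core lay within the first 50 bases and inside a passing 5' UTR peak, shown with GGAC in capitals. GGAC outside such a peak or beyond base 50 is not shown. Both windows lie in the first 50 transcribed bases.
Ube2k (GGAC from base 35, chr5:65537265-65537294, plus strand): tggtgcgcatgcgcGGACccggcgccattt
Ybx1 (GGAC from base 42, chr4:119294464-119294493, minus strand): tcggtagcgggagcggagagcGGACcccag
The first 50 bases of 18.9% of all 32851 RefSeq starts hold GGAC on the transcribed strand and 17.4% hold the reverse complement GTCC. Among iNKT peaks that covered at least 20 of those bases, the covered part held GGAC in 19 of 82 lower peaks (23.2%, Wilson 95% interval 15.4 to 33.4%), in 7 of 49 higher peaks (14.3%, 7.10 to 26.7%) and in 102 of 526 that did not pass (19.4%). These intervals overlap, and a match describes letters only.

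In iNKT cells of Mettl3fl/flCD4-cre mice, 254 of the 1843 5' UTR peaks passed as lower and 152 as higher. Of all iNKT peaks, 19.8% passed as lower and 5.84% as higher. The 5' UTR shares were 13.8% lower (12.3 to 15.4%) and 8.25% higher (7.08 to 9.59%), against 20.9% and 5.43% of the 10699 peaks of the other classes. Lower peaks made up 62.6% of the passing 5' UTR peaks (57.8 to 67.1%), against 79.4% of the passing peaks elsewhere (77.8 to 80.8%). The median log2 fold change was -0.64 over all 5' UTR peaks (95% interval -0.74 to -0.58), against -1.0 over the others. Exon peaks (19.5% lower, 5.67% higher) and 3' UTR peaks (22.2% lower, 5.18% higher) lay near each other. Peaks of 1 transcript share their source, so no test was made of these differences.

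The peaks that passed changed by similar amounts in all classes. The median of the lower 5' UTR peaks was -3.62, against -3.64 for the others, and that of the higher ones was 4.74, against 5.12. The 5' UTR differed in the share of peaks on each side of 0, as the plot of the fold changes by class shows. The 5' UTR peaks were as long as the others, with medians of 179 nt and 181 nt, and more enriched over input, with medians of 10.4 and 7.83. They were more often split over several exons, since 70.2% lay in 1 block against 87.3% of the others.

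**Figure D1:**
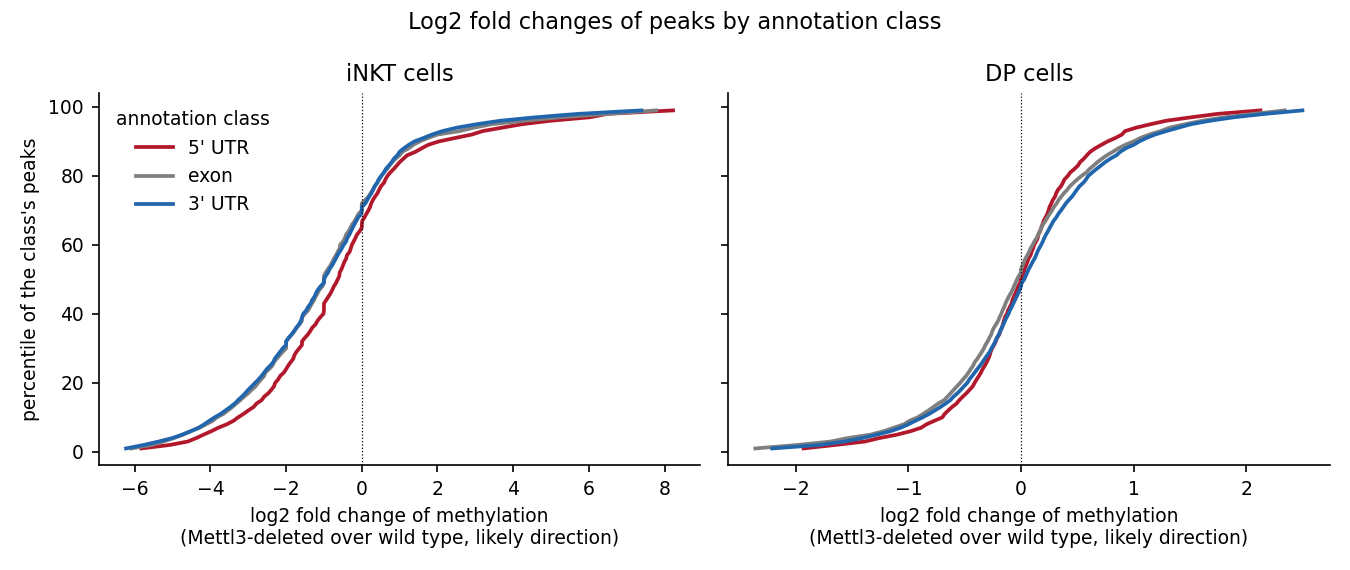
Cumulative share of peaks (vertical axis, percent) by log2 fold change of methylation, Mettl3-deleted over wild type in the likely direction (horizontal axis), for 5' UTR, exon and 3' UTR peaks of iNKT cells on the left and DP cells on the right. The 5' UTR curve of iNKT cells lies to the right of the other curves, with a median of -0.64, and the 3 DP curves lie close together with medians near 0.

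In DP thymocytes few peaks of this class passed. There, 13 of 1129 5' UTR peaks passed as lower and 6 as higher, against 0.743% lower and 0.483% higher over the whole DP table. The 5' UTR shares of 1.15% (0.67 to 1.96%) and 0.53% (0.24 to 1.15%) include these values. Lower peaks were 68.4% of the 19 that passed (46.0 to 84.6%), against 62.6% in iNKT cells. The median log2 fold change was -0.00118 (-0.04 to 0.03), and none of the 19 passing peaks reached a 2-fold change. DP 5' UTR peaks had a median fold enrichment of 4.1, against 4.74 for the other DP peaks, and a median length of 271 nt, against 241 nt. The tables of the 2 cell types were made from different libraries, and the labels name a standard and a low-input protocol without assigning them, so cell type and protocol cannot be told apart.

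The strength of a peak moved with the calls. Among iNKT peaks with a peak p-value over input below 1e-100, 192 of 390 5' UTR peaks passed as lower (49.2%, 44.3 to 54.2%), against 67.0% of 2552 peaks of the other classes (65.2 to 68.8%). Their median log2 fold changes were -2.53 and -3.11. Among peaks with p from 1e-100 to 1e-20 the lower shares were 11.6% and 17.0%, and between 1e-20 and 1e-05 they were 1.07% and 2.01%. Higher peaks ran the other way in the stronger bins. They made up 6.92% of the 5' UTR peaks with p below 1e-100 (4.80 to 9.89%), against 3.29% of the others (2.67 to 4.06%), and 10.5% against 5.89% in the next bin. Between 1e-20 and 1e-05 they made up 9.24% and 7.27%. In the weakest bin, with p above 1e-05, both medians were 0, 0% of 240 5' UTR peaks against 0.06% of 1731 others were lower, and 2.92% against 3.87% were higher. The offset between the 5' UTR and the rest was thus present among the stronger peaks. The weakest bin cannot show whether it was absent there, because almost no peak of either group was called lower.

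**Figure D2:**
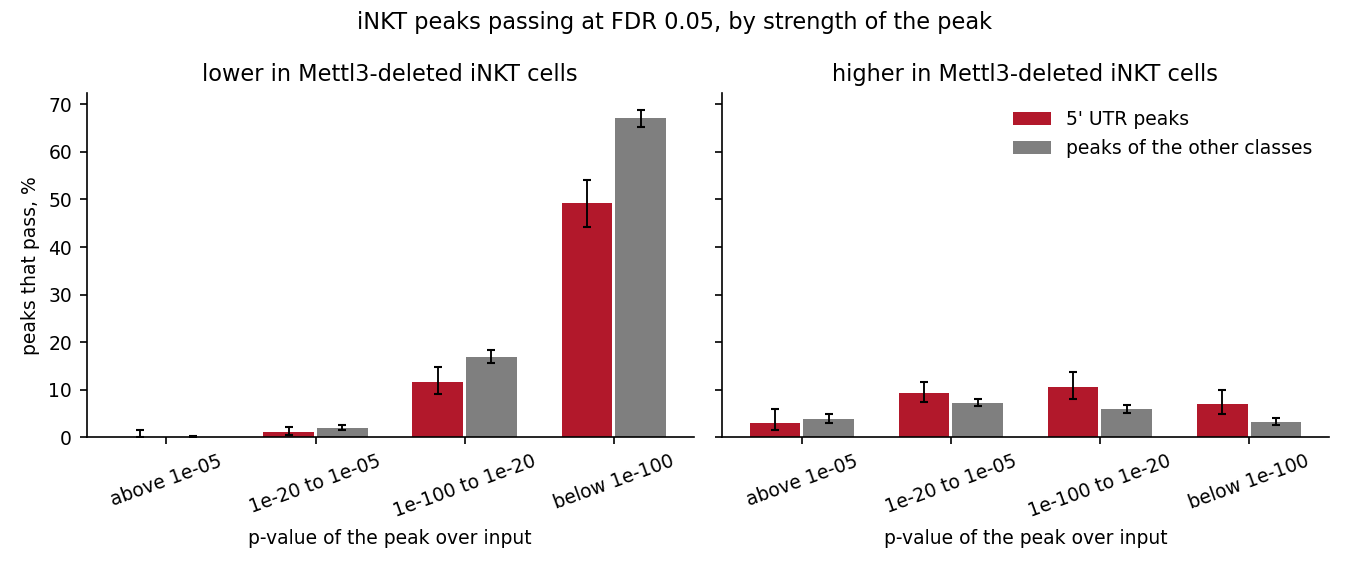
Share of iNKT peaks that pass as lower (left) or higher (right) after Mettl3 deletion, at a threshold of 0.05 on the FDR (vertical axis, percent), by the p-value of the peak over input (horizontal axis), for 5' UTR peaks in red and peaks of the other classes in grey. Bars are shares with Wilson 95% intervals, and in the strongest bin 49.2% of 5' UTR peaks and 67.0% of the others were lower.

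The position of the peaks differed between the cell types. The 5' edge lay within 50 nt of a RefSeq start for 581 of 1804 iNKT peaks (32.2%, 30.1 to 34.4%) and for 136 of 1100 DP peaks (12.4%, 10.5 to 14.4%). In iNKT cells 175 peaks began exactly at an annotated start, and in DP cells 24 did. The RefSeq table does not hold every gene or start, so some distances run to a neighbouring gene. Start-proximal iNKT peaks passed as lower in 11.9% and as higher in 7.40%, and the more distant ones in 14.7% and 8.59%, with medians of -0.64 and -0.63. Start-proximal and more distant peaks thus lay close to each other in these values.

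**Figure D3:**
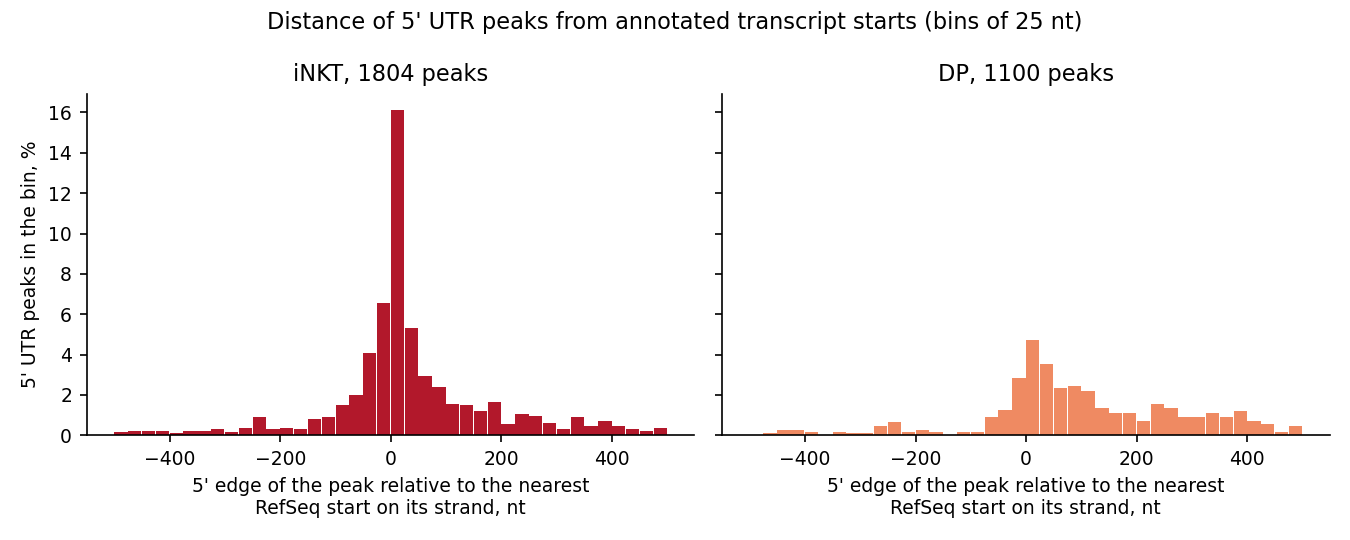
Share of 5' UTR peaks (vertical axis, percent) by the distance of their 5' edge from the nearest RefSeq start on the same strand (horizontal axis, nt, bins of 25 nt), for iNKT cells on the left and DP cells on the right. Peaks of iNKT cells pile up at 0, where 32.2% lie within 50 nt, against 12.4% in DP cells.

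Start bases were compared because m6Am needs an A and is written by Pcif1, not by Mettl3. Of 1201 iNKT genes with a 5' UTR peak and a RefSeq start, 27.6% began with A (25.2 to 30.2%), against 34.4% of all RefSeq starts, and 46.7% began with G, against 35.6%. The DP genes gave 28.0% with A. A TOP start was found in 1.58% of the iNKT genes and 2.49% of the DP genes, against 2.51% of all starts. All RefSeq starts include those of genes without a 5' UTR peak, while each gene with such a peak counted 1 time. Only 553 of the 1201 iNKT starts lay within 50 nt of the peak's 5' edge. These shares therefore cannot show that a start base is rarer or commoner at the peaks. Among the start-proximal iNKT peaks, 153 had a nearest start with A as its first base. Of these, 23 passed as lower (15%, 10.2 to 21.5%) and 8 as higher (5.23%, 2.67 to 9.98%). With G as that base, 32 of 298 passed as lower (10.7%, 7.71 to 14.8%) and 25 as higher (8.39%, 5.75 to 12.1%). The intervals of the A and G starts overlap for both signs, so a difference between them was not detectable in these counts. A start-proximal peak can begin up to 50 nt after the start, as those of Bcl11b and Smim24 do. The counts therefore include peaks that do not cover the first base, and cannot show what holds for peaks that cover it.

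Among the 15 gene lists, those of translation genes had the greatest shares of higher peaks. The 18 iNKT 5' UTR peaks of ribosomal protein genes, in 14 genes, included 10 that passed as higher and none that passed as lower, with a median log2 fold change of 2.47. Among all iNKT 5' UTR peaks, against which the counts of each list are read, 13.8% were lower and 8.25% higher, with a median of -0.64. The 23 peaks of ribosomal protein genes in other classes had 5 higher, 3 lower and a median of 0.09. Rps4x, of the small subunit, rose by 10.1 log2 units and Rpl34, of the large subunit, by 9.57, per the authors' deposited table of iNKT cells. Rpl9 (6.34) and Rpl21 (5.99) of the large subunit, and Rps15 (4.69), Rps20 (4.16) and Rps15a (3.66) of the small subunit, were also higher there, as the authors' deposited table gives them. Rplp1, of the ribosomal stalk, rose by 3.26 and Rps29 by 1.68, per the authors' deposited table. The peaks of Rps10 (-3.00), of Rpl41 (-1.58 and 1.39) and a further peak of Rps15a (-1.81) did not pass, per the authors' deposited table. Ribosomal protein genes have many near-identical pseudogene copies, and how reads that fit several copies were counted is not known from the labels, so these values are uncertain.

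Translation factors also had more higher than lower peaks in the 5' UTR, but not elsewhere. Of their 12 iNKT 5' UTR peaks 5 were higher and 1 lower, with a median of 0.89, while of their 34 peaks in other classes 1 was higher and 11 were lower, with a median of -1.03. The higher peaks belonged to Eef1a1 and Eef2, the elongation factors that bring tRNA to the ribosome and move it along, to Eif1, which helps to select the start codon, to Eif4g2 (2.93), a scaffold of initiation, and to Eif5a (1.68), per the authors' deposited table of iNKT cells. The Eif1 peak (chromosome 11, 100319915 to 100320155, plus strand, mm10) began 34 nt before its RefSeq start and rose by 3.97 at a fold enrichment of 5.96, per the authors' deposited table. That of Eef2 began exactly at its start, with a fold enrichment of only 1.53 over input, per the authors' deposited table. Eif1ad, an Eif1a-like gene, fell by 4.03 (FDR 0.0079), per the authors' deposited table of iNKT cells. Among 7 peaks of a list of other mRNAs described as TOP mRNAs, Imp3 (6.49), needed to process ribosomal RNA, Pabpc1 (2.71), the poly(A)-binding protein, and Vim (1.87), an intermediate filament, were higher, and Ncl (-1.53), nucleolin, was lower, per the authors' deposited table. In DP cells none of the 5 ribosomal, 5 translation factor and 2 other TOP peaks in the 5' UTR passed, with medians of -0.41, -0.03 and -0.94.

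Heat shock genes had 3 higher peaks (37.5%) and 1 lower (12.5%) among 8 iNKT 5' UTR peaks, against 8.25% and 13.8% of all, with a median of 1.44. The chaperones Hsph1 (5.20), Hspa14 (3.57) and Hsp90ab1 (2.48) were higher and the cochaperone Dnajb1 (-1.87) lower, per the authors' deposited table. Their 45 peaks in other classes had 15 lower, 3 higher and a median of -2.00. Among 12 respiratory chain peaks, Uqcrh of complex III was higher (1.24), and Sdhaf1, an assembly factor of complex II (-4.02), and Atp5g3 of the ATP synthase (-1.17) were lower, per the authors' deposited table. The remaining 9 did not pass.

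**Figure D4:**
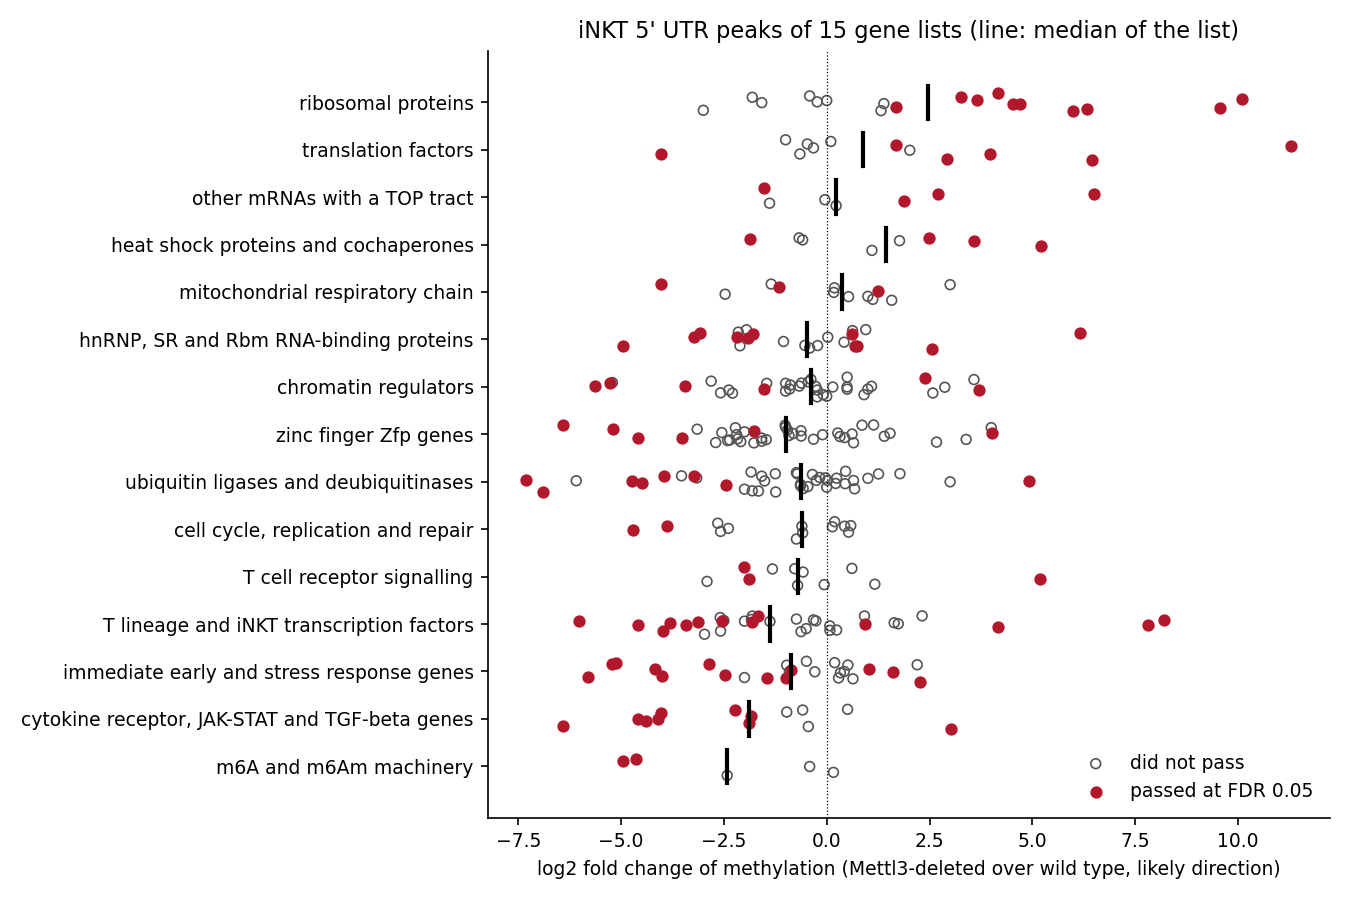
Log2 fold change of methylation of each iNKT 5' UTR peak, Mettl3-deleted over wild type in the likely direction (horizontal axis), for 15 gene lists (rows). Filled points passed at an FDR of 0.05, open points did not, and bars are list medians, from 2.47 for ribosomal proteins down to -2.42 for the m6A and m6Am machinery.

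Of the 33 iNKT 5' UTR peaks of T lineage transcription factors, in 26 genes, 9 passed as lower and 4 as higher, with a median of -1.38. By gene, 6 had a lower and 4 a higher peak, since 4 of the lower peaks belonged to Lef1. The lower share was 27.3% (15.1 to 44.2%), against 13.8% of all iNKT 5' UTR peaks, and the higher share 12.1% (4.82 to 27.3%), against 8.25%. Lower peaks were 69.2% of those that passed, near the 62.6% among all iNKT 5' UTR peaks that passed. Bcl11b, which commits precursors to the T lineage, fell by 6.02 (FDR 1e-107) over 241 nt that begin 21 nt after its RefSeq start (chromosome 12, 108003153 to 108003393, minus strand, mm10), per the authors' deposited table. Sox4 fell by 4.60, Gata3, which specifies helper cells and iNKT subsets, by 3.41, and Ets1 by 2.54, per the authors' deposited table of iNKT cells. Lef1, a partner of beta-catenin, carried 4 lower peaks at 2 sites, where those on its own strand fell by 3.97 and 1.82 and those on the opposite strand by 3.81 and 1.67, per the authors' deposited table. The strand-paired values at Lef1 were close to each other, and whether the library marks strand is not known from the labels.

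Zbtb16, which encodes PLZF, the defining factor of iNKT cells, fell by 3.12 in a peak over 717 nt with a fold enrichment of 7.04, per the authors' deposited table. Tcf7, a relative of Lef1, rose by 4.17 at a fold enrichment of 1.78, and Elf1 by 0.92 (FDR 0.0091), per the authors' deposited table of iNKT cells. The higher Runx3 peak spanned 91 nt starting 158 nt after its RefSeq start, and a 3' UTR peak of the same gene fell by 3.24, per the authors' deposited table. Another 3' UTR peak (-1.42) and an exon peak (-2.27) of Runx3 did not pass, per the authors' deposited table. The higher peak named after Gfi1 lay on the strand opposite to that gene. Peaks of Id2 (-0.50, fold enrichment 88.8), Nfkb1 (-1.38), Satb1 (-0.74) and Notch1 (2.32) did not pass, per the authors' deposited table. In the 102 peaks of these factors outside the 5' UTR, 38 were lower and 7 higher.

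Immediate early and stress response genes, which are transcribed within minutes of stimulation, had 10 lower (40%) and 3 higher (12%) among 25 iNKT 5' UTR peaks, against 13.8% and 8.25% of all, with a median of -0.87. In the other classes 26 of their 59 peaks were lower (44.1%) and 3 higher, a lower share near that in the 5' UTR. The 5' UTR peaks of this list were strong. Their median log10 of the peak p-value was -349, against -17 over all iNKT 5' UTR peaks. Among all iNKT 5' UTR peaks with p below 1e-100, 49.2% were lower. No list was matched to the other peaks for strength, and its part in the shares was not tested. Jun fell by 5.80 and 4.0 at 2 sites, the second of which begins exactly at the RefSeq start, and Fosb by 2.86, per the authors' deposited table. Zfp36, which destabilises AU-rich mRNAs, fell by 5.12 over 988 nt at a fold enrichment of 240.0, and its relative Zfp36l1 fell by 4.17, per the authors' deposited table of iNKT cells. The nuclear receptor Nr4a3 fell by 5.23 (FDR 0.029), the antiproliferative gene Btg1 by 2.47 and the phosphatase gene Dusp1 by 0.99, per the authors' deposited table. Fos rose by 2.26 over the first 120 nt of its transcript, while its 3' UTR peak fell by 4.16, and the kinase gene Pim1 rose by 1.62 in its 5' UTR and fell by 1.79 in its 3' UTR, per the authors' deposited table. Junb held both signs within its 5' UTR, with 1.03 for the peak 30 nt from the start and -1.46 for the peak downstream, per the authors' deposited table. Lsp1, Hnrnpd and Ppp1r18 were the other 3 iNKT genes with passing 5' UTR peaks of both signs.

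Cytokine receptor, JAK-STAT and TGF-beta genes had 8 lower peaks (61.5%, 35.5 to 82.3%) and 1 higher among 13, in 9 genes. By gene, 6 had a lower peak, since 3 of the lower peaks belonged to Smad7. The median over the peaks was -1.88, the second lowest of the lists. Of their 45 peaks in other classes 18 were lower (40%) and 2 higher. The 5' UTR peaks of this list were also strong, with a median log10 of the peak p-value of -199. Over all iNKT 5' UTR peaks it was -17. Smad7, which inhibits TGF-beta receptors, had 3 lower peaks of -4.58, -4.40 and -4.10, per the authors' deposited table, and Smad3, a signal transducer of the pathway, had 1 of -4.03 as the authors' deposited table gives it. The shared gamma chain of cytokine receptors, Il2rg, fell by 1.83 in a peak that begins exactly at its RefSeq start, with a fold enrichment of 153 and an FDR of 0.0044, per the authors' deposited table. Il21r fell by 2.24 (FDR 2.8e-08), per the authors' deposited table. Il2rb, the chain that iNKT cells use to bind IL-15, rose by 3.03 (FDR 4e-19) in its 5' UTR and fell by 1.60 in its 3' UTR, per the authors' deposited table. Of 11 T cell receptor signalling peaks, the adaptor Lat (-1.88) and the co-receptor Cd6 (-2.00) were lower and Malt1 (5.19), a scaffold of NF-kappaB activation, was higher, per the authors' deposited table. Lck (-2.91), the kinase that starts the signal, did not pass, per the authors' deposited table.

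The m6A and m6Am machinery had 5 iNKT 5' UTR peaks, of which 2 were lower, with a median of -2.42. Their median log10 of the peak p-value was -308, against -17 over all iNKT 5' UTR peaks. Ythdc1, the nuclear m6A reader, fell by 4.64 (FDR 6.3e-35) in a peak that begins 45 nt before its RefSeq start, and Hnrnpc, which binds RNA opened by m6A, fell by 4.95 (FDR 0.0011), per the authors' deposited table. Pcif1, the m6Am writer, was at -2.42 and did not pass (FDR 0.3), per the authors' deposited table. The reader genes Prrc2a (0.16) and Ythdc2 (-0.41) did not pass either, per the authors' deposited table. Outside the 5' UTR, 23 of 34 peaks of this machinery were lower and 1 was higher, with a median of -3.10.

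RNA-binding proteins of the hnRNP, SR and Rbm families were mixed, with 6 lower and 5 higher among 22 peaks and a median of -0.47. Besides Hnrnpc, the splicing factors Hnrnpm (-3.23), Hnrnpul2 (-3.07) and Hnrnpa3 (-2.18) were lower, and Rbm12b1 (6.17), the cold-inducible Rbm3 (2.56) and Hnrnpl (0.74) were higher, per the authors' deposited table. Hnrnpd carried 4 passing peaks, with -1.91 at its start and 0.61 farther in on its own strand, and -1.79 and 0.70 on the opposite strand, per the authors' deposited table. Outside the 5' UTR, 34 of 68 peaks of these families were lower and 6 higher.

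Chromatin regulators had 4 lower and 2 higher among 35 peaks, zinc finger genes of the Zfp group 5 and 1 among 41, ubiquitin ligases and deubiquitinases 7 and 1 among 41, and cell cycle genes 2 and 0 among 13. The lower shares of 11.4%, 12.2%, 17.1% and 15.4% in these lists were near the 13.8% of all iNKT 5' UTR peaks. In other classes 38.2% of the chromatin regulator peaks were lower, as were 34 of 260 of the Zfp group (13.1%), 36 of 191 of the ubiquitin list (18.8%) and 10 of 59 of the cell cycle list (16.9%). The remodeller Chd3 fell by 5.63 (FDR 1e-226) over 660 nt, Chd8 by 5.27 and the acetyltransferase gene Ep300 by 3.44, while the DNA methyltransferase gene Dnmt3a rose by 3.71, per the authors' deposited table of iNKT cells. Fbxw4 (-7.30), Ube2k (-6.89), Trim41 (-4.74), Trim8 (-4.50) and Fbxw7 (-3.96), all of the ubiquitin pathway, were lower and Rnf167 (4.93) higher, per the authors' deposited table. The Ube2k peak began 12 nt before the start whose sequence is given above. Zfp148 (-6.40), whose peak begins exactly at its start, was lower, per the authors' deposited table, as were Zfp219 (-5.19) and Zfp740 (-4.60), while Zfp408 (4.02) was higher. Ccnd2, the D-type cyclin gene, fell by 3.88 at a fold enrichment of 2040, per the authors' deposited table. In the 5' UTRs of DP cells, only Bcl11b, Sox4, Btg1, Hnrnpll, Hnrnpu and Ube2m passed among all 15 lists.

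The largest lower iNKT value was that of Ubr2, a ubiquitin ligase of the N-degron pathway, at -8.05 (FDR 2.5e-36, fold enrichment 41.0), per the authors' deposited table. Ccdc124 (-7.25, fold enrichment 428), Gps2 (-6.87), a subunit of the NCoR complex, and Tnrc6c (-6.75), which acts with Argonaute proteins, came next to Fbxw4 and Ube2k, per the authors' deposited table. The smallest FDRs among lower peaks included those of Dek (-4.58), a chromatin protein, Maf (-3.89), a factor of cytokine-producing T cells, and Metap2 (-5.01), a methionine aminopeptidase, per the authors' deposited table. Among the higher peaks, Ptbp3 (10.3), Rcbtb1 (9.86), Smim24 (9.67) and Mboat7 (9.58) stood beside the translation genes, with fold enrichments of 9.53, 6.27, 12.5 and 3.39, per the authors' deposited table. The higher Kpna7 peak lay within Arpc1a by RefSeq, so its name is doubtful. The most enriched peak of all, that of Coro1a, an actin-binding protein of leukocytes, had a fold enrichment of 8140 and did not pass (-1.04), per the authors' deposited table. Large fold changes did not ensure a call, since 711 of the 1102 iNKT 5' UTR peaks that differed at least 2-fold did not pass.

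A gene's 5' UTR peak was compared with its other peaks in the same table, which sets aside differences between genes. In 842 iNKT genes with both kinds, the 5' UTR peaks had a median of -0.67 and the other peaks of -1.18. The difference within a gene had a median of 0.33 (0.18 to 0.52), and the 5' UTR peak was above the others in 460 genes (54.6%, 51.3 to 58.0%). Against 3' UTR peaks the difference was 0.65 over 577 genes (0.34 to 0.85), and against exon peaks it was 0.10 over 487 genes (-0.19 to 0.42). The offset thus appeared against the 3' UTR and was not detectable against exon peaks. The 2 comparisons used different sets of genes, and their intervals overlap. Peak strength was not matched within genes, and its part was not tested. Over all iNKT peaks, the median log10 of the peak p-value was -22.5 for 3' UTR, -17 for 5' UTR and -14.9 for exon peaks. At least 1 lower 5' UTR peak was found in 152 of the 842 genes, a lower peak elsewhere in 353, and both in 92. In DP cells the difference was 0.01 over 613 genes (-0.06 to 0.07).

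In 35 iNKT genes a higher 5' UTR peak stood beside a lower peak elsewhere, and in 16 the reverse held. Of the 842 genes, 81 had a higher 5' UTR peak and 353 a lower peak elsewhere. A lower 5' UTR peak was found in 152 and a higher peak elsewhere in 93. Whether 35 and 16 differ from what these counts alone would give was not tested. Adnp, a chromatin protein gene, had 8.92 in its 5' UTR (FDR 2.5e-21) and -4.30 in its 3' UTR (FDR 6.3e-16), per the authors' deposited table. Imp3 had 6.49 in a peak of 61 nt that begins 25 nt before its RefSeq start, and -3.14 in its 3' UTR, per the authors' deposited table. Znhit2 had 7.75 in its 5' UTR and E130309D02Rik 7.42, with 7.49 for a peak on the opposite strand, per the authors' deposited table. In the reverse direction, Uri1, a prefoldin-like protein gene, had -4.06 in its 5' UTR and 6.49 in its 3' UTR, and Rgl2 had -4.40 and 4.34, per the authors' deposited table. Within 1 gene the fold changes could thus point both ways.

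The cell types shared few 5' UTR peaks. A peak counted as shared if it had at least 1 exonic base in common with a 5' UTR peak of the other table on the same strand. By this rule 304 of 1843 iNKT peaks (16.5%, 14.9 to 18.3%) and 290 of 1129 DP peaks (25.7%, 23.2 to 28.3%) were shared. For 3' UTR peaks the shares were 45.2% and 39.7%, and for exon peaks 37.5% and 27.8%. By gene, 327 genes had a 5' UTR peak in both tables, which is 20.9% of the iNKT genes and 34.8% of the DP genes.

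Shared 5' UTR peaks were more often lower in iNKT cells than unshared ones. Of the 304 shared peaks, 126 were lower (41.4%, 36.1 to 47.1%) and 12 higher, with a median of -1.88, while of the 1539 unshared peaks 128 were lower (8.32%, 7.04 to 9.80%) and 140 higher, with a median of -0.51. Shared peaks were longer, with medians of 239.5 nt and 151 nt, and less enriched, with medians of 8.07 and 11.0. The gap was also present within broad bins of strength or length, but shared peaks were also stronger inside these bins. The median log10 of the peak p-value was -452 for shared and -267 for unshared peaks in the strongest bin. Among peaks over 200 nt it was -231 and -73.3. Strength was thus not matched, and its part in the gap was not tested. Among peaks with p below 1e-100, 98 of 130 shared peaks were lower (75.4%, 67.3 to 82.0%), against 94 of 260 unshared ones (36.2%, 30.6 to 42.2%). Among peaks over 200 nt, 104 of 192 shared ones were lower (54.2%), against 89 of 472 unshared ones (18.9%).

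The direction of change was compared over the shared peaks. Over the 290 DP peaks with their best iNKT partners, the iNKT median was -1.96 and the DP median 0.065. The signs were equal in 114 of the pairs (39.3%), and Pearson's r of the log2 fold changes was -0.06 and Spearman's rho 0.00076 across peaks, which are not independent replicates. Only 8 of these DP peaks passed, so most of the DP signs are those of values near 0. A total of 7 pairs passed in both tables. Ybx1, Bcl11b, Lsp1 and Ube2m were lower in both cell types, and Sox4, Btg1 and Rhoh were lower in iNKT and higher in DP cells. The plot of paired peaks shows this as a cloud stretched along the iNKT axis.

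**Figure D5:**
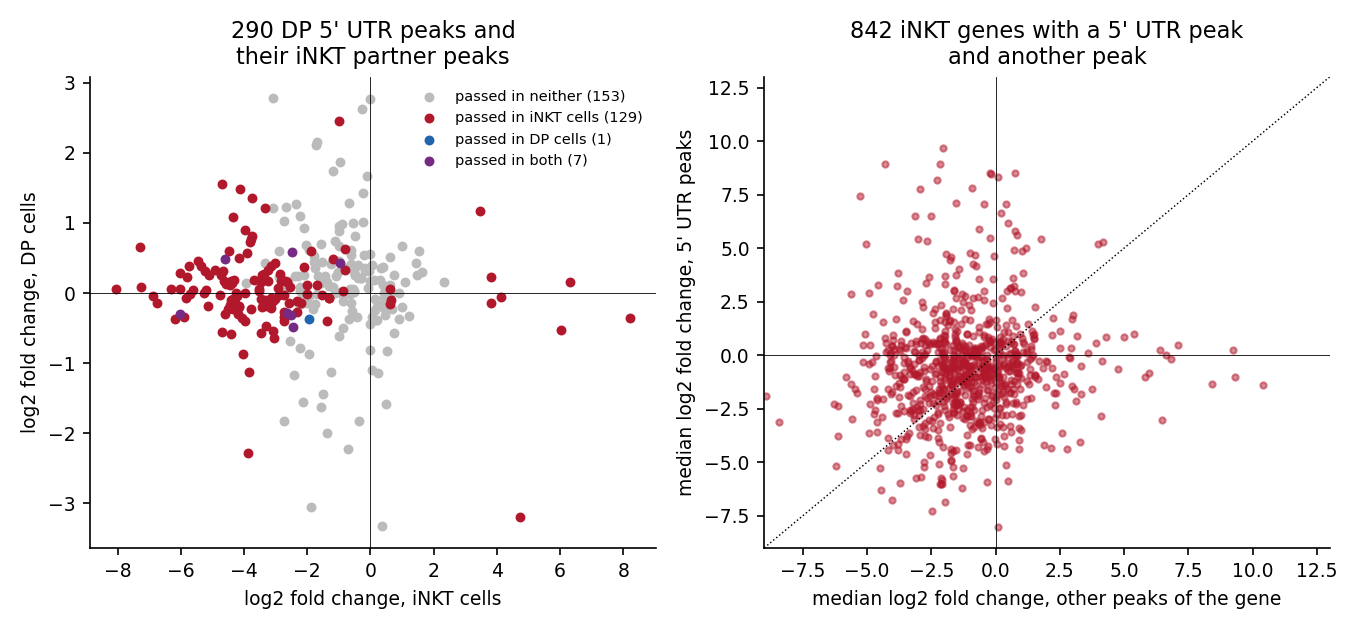
Left, log2 fold change in iNKT cells (horizontal axis) and DP cells (vertical axis) of 290 overlapping 5' UTR peaks, coloured by where they passed. Right, median log2 fold change of the other peaks (horizontal axis) and of the 5' UTR peaks (vertical axis) of 842 iNKT genes, where 460 lie above the dotted line of equal values.

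The 19 passing DP peaks all differed by less than 2-fold between genotypes. Ybx1, a cold-shock RNA-binding protein, fell by 0.29 in DP cells (FDR 0.00083) and by 2.65 in iNKT cells (FDR 2e-08), per the authors' deposited table of each cell type. The iNKT peak spans the start whose sequence is printed above, and the DP peak begins 28 nt after it. Bcl11b and Ube2m, a NEDD8-conjugating enzyme, fell in both, with Ube2m at -0.48 in DP and -2.44 in iNKT cells, per the authors' deposited tables. The chromatin protein genes Hmgn1 (-0.86) and Hmga1 (-0.63) were lower in DP cells and had no iNKT peak in the 5' UTR, per the authors' deposited table. Vps72 (-0.94), of the complex that loads the histone variant H2A.Z, was the largest lower value, per the authors' deposited table of DP cells. Its peak was weak, with a p-value over input above 1e-05 and a fold enrichment of 1.68. It began over 500 nt upstream of the nearest RefSeq start.

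The higher DP peaks were those of Sox4 (0.48), Btg1 (0.59), Rhoh (0.43), a GTPase of T cell receptor signalling, and Supt5 (0.34), an elongation factor of RNA polymerase II, and 2 peaks on the strand opposite to their named genes, Gimap1 (0.63) and 2210010C04Rik (0.69), per the authors' deposited table. The last of these lies in the T cell receptor beta locus by RefSeq. Its name therefore does not give its source. In iNKT cells the overlapping peaks of Sox4 (-4.60), Btg1 (-2.47) and Rhoh (-0.98) were lower, per the authors' deposited table.

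The naming of the peaks has limits. Of the 1498 iNKT and 923 DP 5' UTR peaks whose gene has a known RefSeq strand, 156 (10.4%) and 91 (9.86%) lay on the opposite strand. The opposite-strand iNKT peaks had 15 lower and 13 higher among 156, against 200 and 97 among 1342 on the gene's own strand. Over more than 1 RefSeq gene lay 17.6% of the iNKT and 19.2% of the DP peaks. A class of 5' UTR does not mean that the whole peak is untranslated, since a peak can span several exons, as the 779 nt DP peak of Bcl11b does, per the authors' deposited table. Several genes had more than 1 such peak, 235 of 1564 in iNKT cells and 149 of 940 in DP cells, with up to 6 in Kbtbd11 and Jakmip1.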

How the data were processed

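m6A immunoprecipitates and inputs of sorted iNKT and DP thymocytes were sequenced from Mettl3fl/flCD4-cre and WT mice. Polyadenylated RNA was fragmented, and m6A-seq and m6A-LACE-seq were used, per the labels' protocols, which do not say which served which cell type. The submitters' processing notes name the build mm10 and, without their roles, STAR 2.6.0a, RSEM 1.3.0, HOMER 4.9.1, Trim Galore 0.6.5 and FastQC 0.11.5. The version and settings of the peak caller, and whether it pooled replicates, are not known here. The authors deposited 1 peak table per cell type with, per the file headers, the p-value of each peak, its fold enrichment as a linear ratio, the log2 fold change between genotypes and the log10 of p-values and FDRs, which are treated as scores. The likely sign, which the files do not state, was chosen from the design and the authors' deposited gene lists. Those lists name no direction.

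From these values, 5' UTR peaks were counted by sign at an FDR of 0.05, with Wilson 95% intervals for shares and binomial rank intervals for medians. Starts are 1-based. Names, strands and start sequences came from RefSeq tables of GRCm38.p6. No count model, test between groups or paired fit could be run, because the tables hold no values per library. Peaks are not replicates. The counting steps were tested on simulated data. Alternatives were other FDR thresholds, a 2-fold limit, enrichment and length limits, 1 peak per gene, other overlap rules, a turned sign, and name, strand and start filters. The members and the gene lists were chosen with earlier results of these data known. Named peaks were those with the largest values and smallest FDRs of each sign (8 each), passing list members and up to 4 that did not pass per list, 8 shared pairs, 8 genes of each sign with the largest difference from their other peaks, and the 5 most enriched peaks per table. A few further list members, the genes whose peaks have both signs, and the DP peaks described with them were chosen after their values were seen. No sequence of chromosome 18 is shown. Tables were computed in Python 3.11.15 with pandas 2.3.3, numpy 2.4.6 and SciPy 1.17.1, and drawn with matplotlib 3.10.9.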

Additional observations from a re-analysis of the deposited data

How the results depend on the processing

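Of 195 recomputed values, 162 stayed close to the reported value, 31 moved and 2 turned to the other side with the sign. Among the close ones, the DP median crossed 0 at an enrichment of at least 2 (0.0213), near starts (0.002845) and with the sign turned (0.00118), as did the DP difference within a gene against exon peaks (-0.00335). No paired analysis was possible because the tables hold no values per replicate. Turning the sign, which the files do not state, gave an iNKT median of 0.637 and lower shares among passing peaks of 37.4% in iNKT and 31.6% in DP cells. An FDR of 0.01 left 4 lower and 3 higher DP peaks, an FDR of 0.1 gave 21 lower, and a 2-fold limit left 0 and 0. With that limit 2 higher hnRNP, SR and Rbm peaks were left. Without peaks under 100 nt the iNKT median was -0.807. With 1 peak per gene the iNKT fold enrichment was 11.8, and a minimum enrichment of 2 gave a DP enrichment of 4.77 and a length of 326 nt. Start-proximal peaks alone, an alternative chosen after seeing the data, gave 69 lower and 43 higher iNKT peaks, an enrichment of 11.4 and a length of 151 nt, and in DP cells 3 lower and 0 higher peaks, a lower share of 100% and an enrichment of 3.315. Overlap over at least 50% of the shorter peak gave shared shares of 14.3% in iNKT and 22.7% in DP cells, and partners of any class 18.7% and 39.1%. In peaks with p below 1e-20, 54.5% of shared and 19.8% of unshared iNKT peaks were lower, and at an FDR of 0.01 5.91% of unshared ones. The difference within a gene was 0.649 against 3' UTR and 0.095 against exon peaks. Counting an A at the start base or a direct neighbour gave 49.4% of iNKT genes, 51.1% of those with a lower peak and 48.3% of DP genes. A variant that attached each peak to every gene named for it was not run, because the files name 1 gene per peak. The depth of the libraries is unknown, and for moves without a stated construction the cause was not tested.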

Other observations

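In the iNKT table the values themselves repeated. A fold enrichment of 31.3 occurred in 38 5' UTR peaks, none of which passed, and one of 47 in 35 peaks. Log2 fold changes of exactly -1 and 0 occurred in 57 and 47 peaks. In the DP table the commonest fold enrichment, 4.14, occurred in 11 peaks. By length, the lower share of iNKT 5' UTR peaks was 2.39% up to 100 nt, 6.28% above 100 and up to 200 nt and 29.1% above 200 nt, and the higher share was 5.07%, 9.12% and 8.73%.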
